A study of Mus musculus with 110 samples.

Results

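Chemokines and their receptors were followed across the liver, interscapular brown adipose tissue (iBAT), inguinal white adipose tissue (iWAT) and epididymal white adipose tissue (eWAT) of mice exposed to methionine restriction, cold or both. The genes were chosen by symbol alone: every gene named Ccl, Cxcl, Cx3cl, Xcl, Ccr, Cxcr, Cx3cr or Ackr followed by a number and, at most, 1 letter. Of 59 such genes, 55 had at least 10 counts in total in at least 1 tissue, out of 29924 genes that did so. This left 46 of 22143 genes in liver, 49 of 23915 in iBAT, 53 of 26428 in iWAT and 55 of 27786 in eWAT, with 43 chemokine genes present in all 4 tissues. Ccl20, Ccl21b, Ccl27b and Cxcl15 reached 10 counts in no tissue. Many of the 55 were sparse: a group mean of at least 0.5 CPM (counts scaled to the size of the library) was reached by 31 liver genes, 26 iBAT genes, 40 iWAT genes and 39 eWAT genes.

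The study set diet against temperature in male C57BL/6N mice, 28 animals aged 16 weeks at the end of the experiment. Ctrl_RT mice received a control diet with 0.86% methionine for 7 days at 22 °C, and Ctrl_CE mice had the same 7 days followed by a further 24 h at 4 °C. MetR_RT mice received a diet with 0.12% methionine for 7 days at 22 °C, and MetR_CE mice had those 7 days and then 24 h at 4 °C. The cold groups were thus sampled a day later than the RT groups, and cold and the added day cannot be told apart. Both diets contained 0% cysteine, so every group, controls included, went without dietary cysteine. Each tissue was measured by bulk RNA-seq in 7 mice per group, except that the analysis kept 6 libraries in iBAT Ctrl_RT, iBAT Ctrl_CE, iWAT MetR_CE and eWAT MetR_RT, and 4 in eWAT Ctrl_RT.

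Chemokines are small secreted proteins that guide the movement of leukocytes through G-protein-coupled receptors. The inflammatory members, such as the monocyte attractants Ccl2 and Ccl7 that signal through Ccr2, are induced by cytokines and NF-kB, whereas homeostatic members such as Cxcl12 are made constitutively by stromal cells. Atypical receptors (Ackr) bind chemokines without classical signalling and remove or transport them. In adipose tissue, chemokines are known mainly for the recruitment of monocytes and macrophages.

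Levels are given as CPM normalised by trimmed mean of M values, as mean ± SD or as the lowest, median and highest library of a group, and changes as log2 fold change ± SE. A gene was called when its edgeR adjusted p, corrected over all genes of the tissue, was below 0.05 and its fold change was at least 1.5. Shares of all genes belong to the edgeR fits of all kept libraries. Counts from fits with fewer libraries or other settings are given without a share of their own. Library sizes ran from 6987895 to 33444374 counts. Defining markers matched the labels of liver and iBAT. Summed hepatocyte markers lay between 42000 and 81830 CPM in liver and at most at 178.2 CPM elsewhere. Brown adipocyte markers lay between 8201 and 18850 CPM in iBAT and between 49.72 and 7485 CPM in iWAT. Summed skeletal muscle markers varied widely between libraries, from 2.448 to 20240 CPM in iWAT and from 0.1954 to 1670 CPM in iBAT. The part of muscle RNA in the results was not tested. A pair of libraries stood apart in immune genes. The iWAT library of Ctrl_RT replicate 7 had summed neutrophil markers of 178.6 CPM against a group median of 20.6 CPM, and Ctrl_CE replicate 4, the same mouse in all 4 tissues, was the highest of its group for these markers in each tissue. Many results that rest on them are given with and without them. In bulk tissue, fewer cells of a type and less RNA per cell cannot be told apart.

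In iWAT the family was mostly lower under each exposure. Compared to Ctrl_RT, 24 of 53 genes were called in Ctrl_CE (22 lower, 2 higher), against 15.9% of all genes. In MetR_RT, 22 were called (21 lower, 1 higher), against 11.6% of all genes. In MetR_CE, 28 were called, all of them lower, against 22.4% of all genes. The lower direction alone held 9.94%, 7.36% and 14.4% of all genes in the 3 comparisons, and the higher direction 5.99% in Ctrl_CE and 4.25% in MetR_RT. The median log2 fold change over the chemokine genes was −0.67 in Ctrl_CE, −0.64 in MetR_RT and −1.02 in MetR_CE, beside −0.11, −0.03 and −0.08 over all genes. The 3 comparisons share the Ctrl_RT libraries. Without Ctrl_RT replicate 7, 18, 22 and 27 genes were called, and the shares of all genes above are those with that library.

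**Figure D1:**
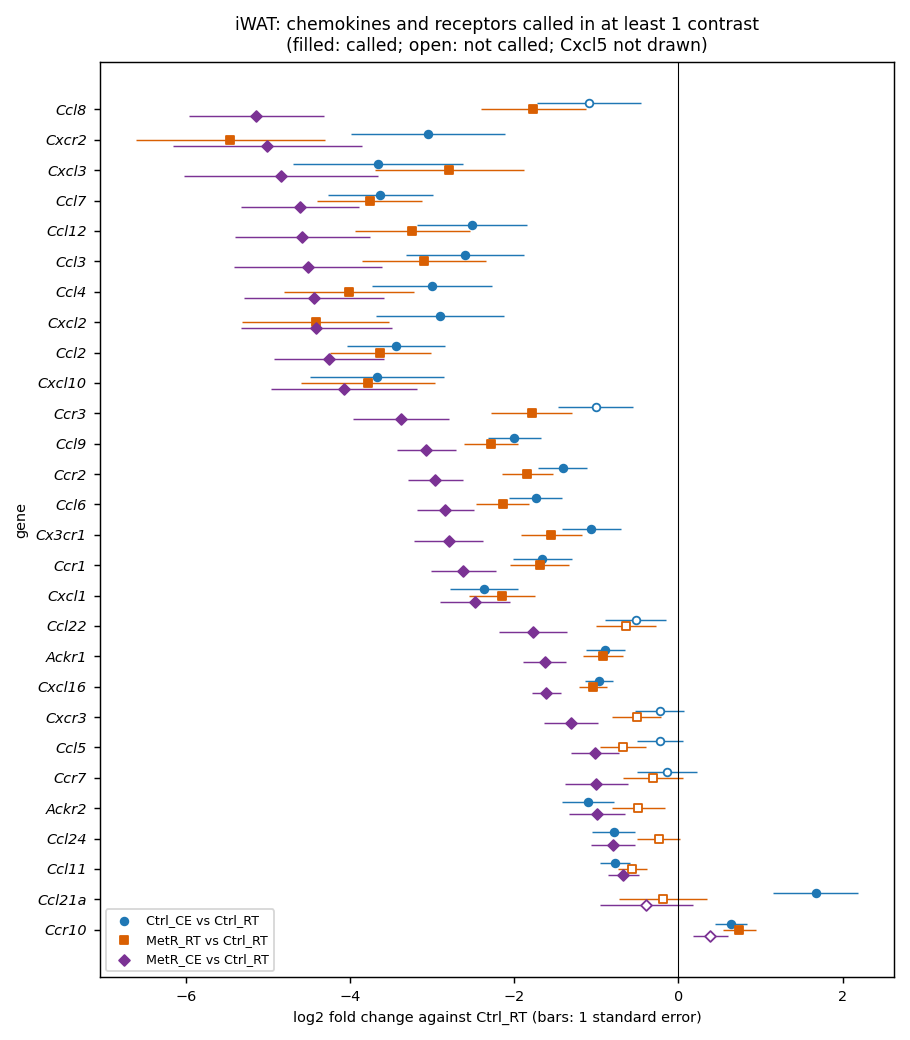
Log2 fold change ± 1 SE (x axis) of the iWAT chemokine genes called in at least 1 of the 3 comparisons with Ctrl_RT, by gene (y axis) and by comparison (colour); filled points passed the test and open points did not. Nearly all filled points lie left of 0, and Ccl21a and Ccr10 are the genes with filled points to the right of it; Cxcl5, which was at 0 in 2 groups, is not drawn, and 1 called gene is not shown.

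Of 14 CC ligands of monocytes and eosinophils tested in iWAT, 9 were lower in Ctrl_CE, 8 in MetR_RT and 12 in MetR_CE, with medians of −1.41, −1.96 and −2.96. Ccl2, the main attractant of Ccr2-bearing monocytes, lay on chromosome 11 at 82035577 to 82037452 (mm10). It ranged from 3.46 to 128.6 CPM in Ctrl_RT (median 12.4), from 0.943 to 5.97 in Ctrl_CE (median 2.53), from 1.25 to 4.83 in MetR_RT (median 2.40) and from 0.786 to 2.40 in MetR_CE (median 1.66). Every MetR_CE library was below every Ctrl_RT library, while the other 2 groups overlapped the lowest Ctrl_RT libraries. Its log2 fold change was −3.44 ± 0.60 in Ctrl_CE (adjusted p = 0.000103), −3.63 ± 0.61 in MetR_RT (adjusted p = 0.000146) and −4.26 ± 0.67 in MetR_CE (adjusted p = 1.31e-05). Without Ctrl_RT replicate 7, these values were −2.38, −2.58 and −3.21, all still called.

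Ccl7, a further Ccr2 ligand, followed the same order of groups. Its median fell from 16.7 CPM in Ctrl_RT to 2.02 with cold, 1.85 with methionine restriction and 1.46 with both, and the Ctrl_RT libraries spread from 2.89 to 133.8 CPM. The log2 fold changes were −3.63 ± 0.64, −3.76 ± 0.64 and −4.61 ± 0.72, all called with adjusted p of at most 0.000173, and without Ctrl_RT replicate 7 they were −2.59, −2.72 and −3.57, all still called. Ccl12, the mouse monocyte attractant encoded next to them, had a Ctrl_RT median of 2.18 CPM against 0.946, 0.389 and 0.206 in Ctrl_CE, MetR_RT and MetR_CE. It fell by 2.52, 3.24 and 4.58 on the log2 scale. Without Ctrl_RT replicate 7 the changes were −0.89 (adjusted p = 0.149, no longer called), −1.61 (adjusted p = 0.0135) and −2.95 (adjusted p = 8.81e-05).

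Ccl8, another ligand of the same gene cluster (chromosome 11, 82115185 to 82116799), was lower under the combined exposure than under either exposure alone. Ctrl_RT libraries lay between 37.5 and 157.2 CPM (median 50.1). Ctrl_CE libraries lay between 5.97 and 108.5 CPM (median 19.1), and MetR_RT libraries between 2.61 and 71.8 CPM (median 9.52). MetR_CE libraries lay between 0.403 and 3.09 CPM (median 2.21), below every Ctrl_RT and Ctrl_CE library. Cold alone did not pass the test (−1.09 ± 0.63, adjusted p = 0.203), methionine restriction alone did (−1.77 ± 0.64, adjusted p = 0.0474), and the combination reached −5.14 ± 0.82 (adjusted p = 1.72e-05). MetR_CE was also below MetR_RT (−3.36 ± 0.78, adjusted p = 0.0118) and below Ctrl_CE (−4.05 ± 0.79, adjusted p = 0.0093).

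Ccl6 and Ccl9, macrophage-derived ligands of Ccr1, separated Ctrl_RT from the treated groups without overlap. Ccl6 (chromosome 11, 83587886 to 83593087) lay between 203.8 and 372.5 CPM in Ctrl_RT, whereas the libraries of Ctrl_CE ran from 35.4 to 150.7, those of MetR_RT from 25.9 to 114.8 and those of MetR_CE from 22.5 to 73.1, so that no treated library reached a Ctrl_RT library. The log2 fold changes were −1.74 ± 0.32, −2.14 ± 0.32 and −2.84 ± 0.35 (adjusted p of 0.000147, 6.07e-05 and 6.48e-07). Ccl9 went from 174.2 ± 59.6 CPM in Ctrl_RT to 43.5 ± 20.1, 35.9 ± 19 and 20.7 ± 7.24 CPM and fell by 2.00, 2.28 and 3.07 on the log2 scale. The eotaxins, which attract eosinophils through Ccr3, had smaller fold changes. Ccl11 went from 33.6 ± 8.39 CPM in Ctrl_RT to 19.8 ± 4.94 in Ctrl_CE (−0.77, adjusted p = 0.00172) and 21.1 ± 5.47 in MetR_CE (−0.67, adjusted p = 0.00524), and Ccl24 was called in Ctrl_CE (−0.79) and MetR_CE (−0.80) but not in MetR_RT (−0.24, adjusted p = 0.57).

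**Figure D2:**
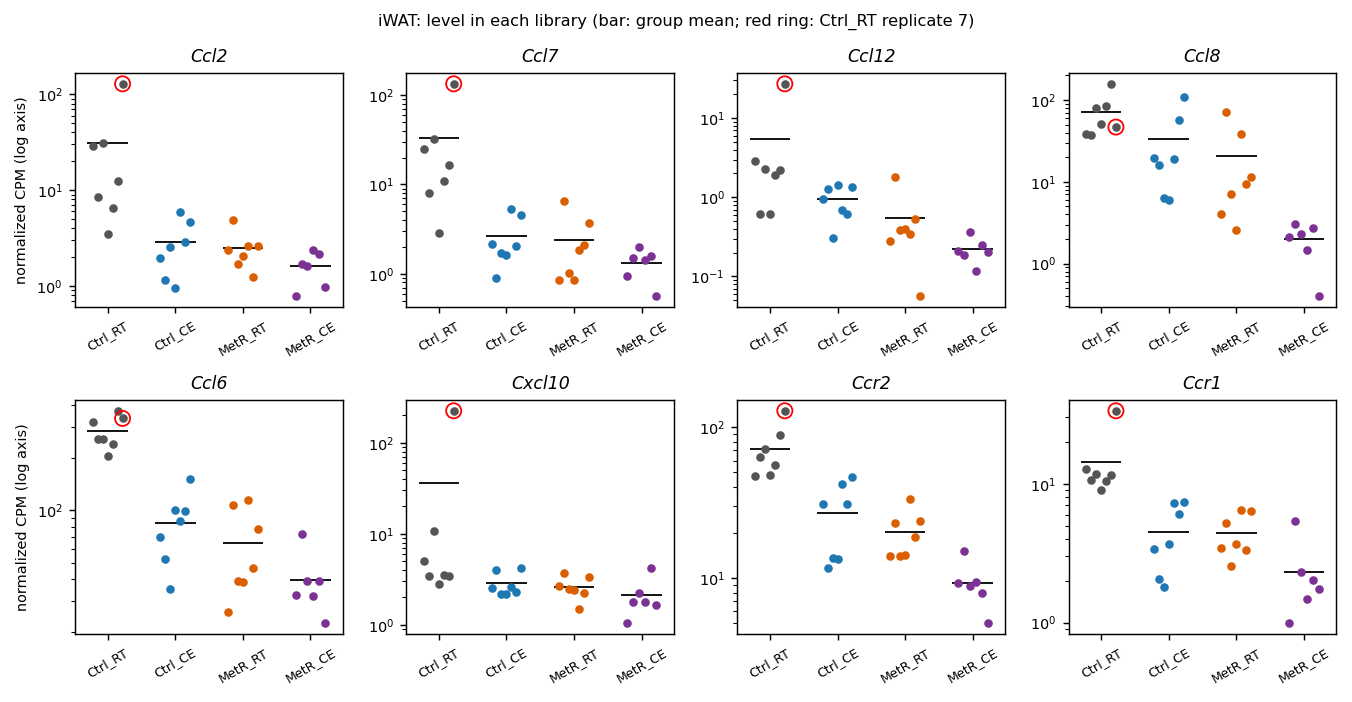
Normalised CPM on a log axis (y axis) of 8 chemokine genes in each iWAT library, by group (x axis); each point is a library, the bar is the group mean and the red ring marks Ctrl_RT replicate 7. That library is the highest Ctrl_RT point for Ccl2, Ccl7, Ccl12, Cxcl10, Ccr2 and Ccr1, whereas Ccl6 separates the Ctrl_RT libraries from all others without it.

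The CXC ligands of neutrophils, which act on Cxcr2, were scarce in iWAT, and the 4 tested were lower in all 3 comparisons. Cxcl1 lay between 0.521 and 5.79 CPM in Ctrl_RT (median 1.74), with medians of 0.445 in Ctrl_CE, 0.486 in MetR_RT and 0.446 in MetR_CE. Its log2 fold changes were −2.37 ± 0.41, −2.15 ± 0.40 and −2.48 ± 0.43 (adjusted p of 9.66e-05, 0.000353 and 4.33e-05). For the other members the Ctrl_RT mean was carried by replicate 7. Cxcl2 reached 9.18 CPM there against a group median of 1.23, and Cxcl5, known as an epithelial and myeloid neutrophil attractant, reached 16.7 CPM against a median of 0.308. Cxcl5 had no count in MetR_RT and MetR_CE. Without replicate 7, Cxcl2 was not called in Ctrl_CE (−1.60, adjusted p = 0.0786), and Cxcl3 was called in MetR_CE (−3.17) but not in Ctrl_CE (−2.01, adjusted p = 0.114) or MetR_RT (−1.14, adjusted p = 0.385); Cxcl3 was chosen for mention after its values were seen.

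The promoters of 3 of the neutrophil ligands on chromosome 5 are shown because they hold the same letters within 97 bases of the start. With all libraries the 3 transcripts were called lower in the same comparisons, and for Cxcl2 and Cxcl3 some of these calls rested on Ctrl_RT replicate 7, as given above. The sequences are RefSeq promoters of GRCm38.p6, 250 bases before to 50 after the gene's start, and capitals mark GGGAATTTCCC, in which the NF-kB motif (GGGA and TTCC with 2 bases between them) matches on both strands in overlapping windows.
Cxcl1, chr5:90890995-90891294, plus strand: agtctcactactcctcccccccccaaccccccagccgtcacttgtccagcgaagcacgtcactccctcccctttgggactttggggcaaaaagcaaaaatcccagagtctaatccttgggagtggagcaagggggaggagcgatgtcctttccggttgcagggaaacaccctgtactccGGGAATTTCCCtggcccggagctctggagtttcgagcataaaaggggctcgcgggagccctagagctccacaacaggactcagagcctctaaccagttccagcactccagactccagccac
Cxcl2, chr5:90903649-90903948, plus strand: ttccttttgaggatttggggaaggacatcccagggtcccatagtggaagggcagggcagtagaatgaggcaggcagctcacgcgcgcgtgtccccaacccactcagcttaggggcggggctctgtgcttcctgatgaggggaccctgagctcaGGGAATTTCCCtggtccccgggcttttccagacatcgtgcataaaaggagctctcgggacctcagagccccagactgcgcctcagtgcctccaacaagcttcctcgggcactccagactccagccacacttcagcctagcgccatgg
Cxcl3, chr5:90785851-90786150, plus strand: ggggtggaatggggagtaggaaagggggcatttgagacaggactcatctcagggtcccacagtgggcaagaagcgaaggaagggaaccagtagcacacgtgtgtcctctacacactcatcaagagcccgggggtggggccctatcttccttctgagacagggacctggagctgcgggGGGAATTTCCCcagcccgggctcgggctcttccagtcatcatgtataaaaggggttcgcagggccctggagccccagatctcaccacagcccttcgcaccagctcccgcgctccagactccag
The first base of the motif lies 71 bases before the start in Cxcl1, 97 in Cxcl2 and 73 in Cxcl3. Cxcl10, also on chromosome 5 but on the other strand, is shown for its wider set of motifs. Its capitals mark, in order, the interferon-response motif (GAAA and GAAA with 2 bases between them) 213 bases before the start, the NF-kB motif 159 bases before it and the AP-1 motif (TGA and TCA with 1 base between them) 74 bases before it.
Cxcl10, chr5:92348840-92349139, minus strand: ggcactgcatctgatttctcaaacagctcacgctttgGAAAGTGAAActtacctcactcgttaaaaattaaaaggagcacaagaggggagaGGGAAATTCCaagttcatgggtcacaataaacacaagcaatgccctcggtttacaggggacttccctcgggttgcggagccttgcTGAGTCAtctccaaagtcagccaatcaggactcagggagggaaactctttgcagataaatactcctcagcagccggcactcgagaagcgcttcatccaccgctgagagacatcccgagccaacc
Of the 55 genes, 40 had an entry, with 44 promoters among them; Ccl2 and Ccl7 had none. Searched on both strands, the NF-kB motif was in 6 of 44 (13.6%), those of Ccl1, Ccr3, Cxcl1, Cxcl2, Cxcl3 and Cxcl10, and in 482 of all 32851 promoters (1.47%). The interferon-response motif was in 3 of 44 (6.82%) against 3.44% of all, and the AP-1 motif in 7 of 44 (15.9%) against 7.81%. Ccl12, which had an entry, held none of these motifs. The matching letters are a description and not evidence of binding.

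The interferon-inducible ligands of Cxcr3, which attract activated T cells, had 1 member, Cxcl10, called in iWAT. It lay between 2.79 and 224.4 CPM in Ctrl_RT, with a median of 3.54, and the medians were 2.55 in Ctrl_CE, 2.48 in MetR_RT and 1.78 in MetR_CE. The fold changes of −3.67 ± 0.82, −3.78 and −4.07 ± 0.89 were all called, but they depended on replicate 7, which held the 224.4 CPM. Without it, they were −0.75 (adjusted p = 0.061), −0.87 (adjusted p = 0.0387) and −1.16 (adjusted p = 0.00462). Cxcl9 had means of 13.8, 11.7, 19.4 and 19.9 CPM in Ctrl_RT, Ctrl_CE, MetR_RT and MetR_CE and was not called, although without replicate 7 it was called higher in MetR_RT (0.65, adjusted p = 0.0396) and MetR_CE (0.69, adjusted p = 0.0211). Cxcl11 did not pass in any comparison (−0.40, −0.56 and −0.43).

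Homeostatic ligands were mostly not called in iWAT: of 12 tested, 1 was lower in each comparison and 1 was higher in Ctrl_CE. The lower one was Cxcl16, a membrane-bound ligand of Cxcr6 that macrophages also make. It went from 8.39 ± 1.97 CPM in Ctrl_RT to 4.28 ± 1.06, 4.09 ± 0.738 and 2.74 ± 0.663 CPM without overlap, with log2 fold changes of −0.97 ± 0.17, −1.04 ± 0.17 and −1.61 ± 0.18 (adjusted p of 0.000124, 0.000143 and 3.04e-07). The higher one was Ccl21a, a lymphatic ligand of Ccr7, which lay between 0.419 and 5.62 CPM in Ctrl_CE and between 0.365 and 1.40 CPM in Ctrl_RT (1.67 ± 0.52, adjusted p = 0.0157). Ccl21a has near-identical copies in the mouse genome, and its counts may be split with them. Cxcl12, the stromal ligand of Cxcr4 and Ackr3, had means between 192.1 and 238.9 CPM in the 4 groups, and Cxcl14, an orphan ligand made by adipocytes and other tissues, had means of 21.7 CPM in Ctrl_RT and 39.7 CPM in MetR_CE, a difference that did not pass the test (0.88, adjusted p = 0.0581).

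Of 7 receptors of monocytes, macrophages and neutrophils tested in iWAT, 5 were lower in Ctrl_CE and 6 each in MetR_RT and MetR_CE. Ccr2, the receptor of Ccl2 and Ccl7, lay between 47.7 and 128.1 CPM in Ctrl_RT (median 63.6), 11.7 and 46.9 in Ctrl_CE (median 30.8), 13.9 and 33.5 in MetR_RT (median 18.8) and 5.04 and 15.2 in MetR_CE (median 9.09). No treated library overlapped Ctrl_RT. The changes were −1.41 ± 0.30 (adjusted p = 0.000794), −1.84 ± 0.31 (adjusted p = 0.000147) and −2.96 ± 0.34 (adjusted p = 3.33e-07).

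Ccr1, which binds Ccl6 and Ccl9 among others, went from 14.3 ± 8.57 to 4.50 ± 2.35, 4.45 ± 1.56 and 2.33 ± 1.58 CPM, with changes of −1.66, −1.69 and −2.62. Cx3cr1, the fractalkine receptor of resident macrophages and patrolling monocytes, went from 2.7 ± 1.09 to 1.28, 0.928 and 0.376 CPM (−1.06, −1.55 and −2.80). Ccr3, the eotaxin receptor, did not pass in Ctrl_CE (−1.01, adjusted p = 0.0968) and was lower in MetR_RT (−1.79) and MetR_CE (−3.38). Cxcr2, the neutrophil receptor, had a Ctrl_RT median of 0.6251 CPM but 19.4 CPM in replicate 7, and without that library it was lower in MetR_RT (−3.42) and MetR_CE (−2.96) but not in Ctrl_CE (−1.0, adjusted p = 0.359).

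Receptors of lymphocytes and dendritic cells were called in both directions. Of 9 tested, Ccr10 was higher in Ctrl_CE (from 3.09 ± 0.975 to 4.81 ± 0.458 CPM; 0.64, adjusted p = 0.0148) and in MetR_RT (5.14 ± 1.63 CPM; 0.74, adjusted p = 0.00746); it is the receptor of Ccl27 and Ccl28 and was chosen for mention after its values were seen. Ccr7, the lymph-node homing receptor, was lower in MetR_CE (−1.0 ± 0.38, adjusted p = 0.0415), and Cxcr3 (chosen after its values were seen) was lower there too (−1.31 ± 0.33, adjusted p = 0.00216). Cxcr4, the Cxcl12 receptor, had means between 3.72 and 4.87 CPM and was not called. Among the atypical receptors, Ackr1, carried by venular endothelium and red cells, went from 18.3 ± 4.07 CPM to 9.89 ± 3.79, 9.70 ± 4.37 and 5.91 ± 1.32 CPM (−0.89, −0.92 and −1.63, all called). Ackr2, a scavenger of inflammatory CC chemokines, was lower in Ctrl_CE (−1.10, adjusted p = 0.0105) and MetR_CE (−0.99, adjusted p = 0.0214). Ackr3, which scavenges Cxcl12, and Ackr4, which scavenges Ccl19, Ccl21 and Ccl25, were not called in iWAT, with means between 48.7 and 65.7 CPM and between 1.71 and 1.9 CPM.

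The combined exposure was compared with each single exposure and tested for an interaction. MetR_CE was lower than MetR_RT for 3 genes, among them Ccr2 (−1.12) and Ccl8, against 1.88% of all genes called (1.28% lower). It was lower than Ctrl_CE for 7 genes, among them Ccl8, Ccl21a, Ccr2, Ccr3, Cx3cr1 and Cxcl16, against 2.27% (1.55% lower). No interaction of diet and temperature passed by edgeR (10 of 53 at an unadjusted p below 0.05; 1.65% of all genes called), while DESeq2 called 4. With the summed lymphocyte markers as a covariate, 17 genes were called in MetR_CE against Ctrl_RT and none in MetR_CE against either single exposure. The covariate itself had its lowest group mean in MetR_CE, so it can take up part of the change in that group. The share of all genes called in this fit is not given.

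The falls in iWAT moved with markers of several cell types, and their part in the result was not tested. Of 14 macrophage and monocyte markers, 13, 13 and 14 were lower in Ctrl_CE, MetR_RT and MetR_CE. The summed level of these markers lay between 2088 and 3577 CPM in Ctrl_RT, whereas it ran from 488.0 to 2409 CPM with cold, from 414.9 to 1686 CPM with methionine restriction and from 331.2 to 775.7 CPM with both. Of 8 fibroblast and mesothelial markers, 3, 3 and 4 were lower, and the sums went from a mean of 14760 CPM to 4698, 3642 and 1821 CPM. All 5 brown adipocyte markers were higher in each comparison, with sums of 359.0 CPM in Ctrl_RT and 3577, 2696 and 5090 CPM in the treated groups. Of 7 neutrophil markers, 1, 4 and 4 were lower; their sum lay between 12.6 and 178.6 CPM in Ctrl_RT and between 2.78 and 60.2 CPM in Ctrl_CE, and the restricted libraries, at 2.43 to 8.34 CPM in MetR_RT and 1.73 to 3.28 CPM in MetR_CE, were below every Ctrl_RT library. Lymphocyte markers went from 14.8 CPM to 13, 14.2 and 8.26 CPM, with 0, 1 and 5 of 16 lower, and none of these marker lists had a member at 0 in all iWAT libraries.

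Of 26 genes of the signalling machinery behind the receptors, 13, 15 and 15 were lower in iWAT and none higher, beside 9.94%, 7.36% and 14.4% of all genes lower, with medians of −0.76, −0.74 and −1.15. Without Ctrl_RT replicate 7, 12, 13 and 15 were lower, with medians of −0.66, −0.70 and −1.08. Among them were the myeloid Src-family kinase Fgr (−1.82, −2.84 and −3.42) and Vav1, a guanine nucleotide exchange factor (−1.45, −1.77 and −2.83). Of 20 genes of NF-kB and the cytokines that induce chemokines, 9, 8 and 11 were lower, among them Il1b (−3.38, −4.78 and −4.82) and Tnf (−2.06, −1.95 and −2.31). Without that library 5, 5 and 7 were lower, Il1b was still called (−2.05, −3.45 and −3.49), and Tnf was called in no comparison (−0.34, −0.23 and −0.59, adjusted p of 0.655, 0.798 and 0.41). Of 7 chemokine-like genes outside the naming rule, the platelet and macrophage chemokines Pf4 (−1.03, −1.35 and −1.91) and Ppbp (−1.17, −1.76 and −1.76) were lower in all 3 comparisons.

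In iBAT, Cxcl12 and Cxcl14 were higher in both cold groups, and most lower calls were in the combined exposure. Compared to Ctrl_RT, 6 of 49 genes (12.2%) were called in Ctrl_CE (2 higher, 4 lower), a share no larger than the 14.7% of all genes. That reading holds for the fit of all kept libraries only. More members were called in Ctrl_CE without its replicate 4, as given below. In MetR_RT, 5 were called (all lower; 2.5% of all genes), and 17 in MetR_CE (2 higher, 15 lower; 14.7%). Over all genes, 4.97% were higher and 9.72% lower in Ctrl_CE, 1.97% were lower in MetR_RT, and 4.36% were higher and 10.3% lower in MetR_CE. Cxcl12 (chromosome 6, 117168535 to 117181368) lay between 132.9 and 180.3 CPM in Ctrl_RT (median 158.5), 213.7 and 402.8 in Ctrl_CE (median 359.4) and 238.8 and 330.5 in MetR_CE (median 278.6). Both cold groups lay wholly above Ctrl_RT, with changes of 1.03 ± 0.13 (adjusted p = 3.24e-07) and 0.85 ± 0.13 (adjusted p = 4.39e-06), whereas MetR_RT, at 172.2 ± 28.8 CPM, was not called (0.12). Cxcl14, which brown adipocytes are known to secrete, went from 15.6 ± 5.46 CPM to 34.5 ± 7.03 in Ctrl_CE and 38.3 ± 8.94 in MetR_CE, also without overlap (1.15, adjusted p = 9.48e-05; 1.31, adjusted p = 1.34e-05). Ackr3, the scavenger of Cxcl12, was higher in MetR_CE than in MetR_RT (0.63, adjusted p = 0.00511) and in Ctrl_CE missed the fold required (0.54, adjusted p = 0.0195).

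Of the lower members in iBAT, Cxcl9, the interferon-inducible Cxcr3 ligand, lay between 3.85 and 8.42 CPM in Ctrl_RT, 1.84 and 3.73 in Ctrl_CE and 1.91 and 3.16 in MetR_CE, both below every Ctrl_RT library (−1.03 ± 0.20, adjusted p = 0.000122; −1.25 ± 0.19, adjusted p = 6.65e-06), whereas MetR_RT, at a mean of 5.26 CPM, was not called (−0.13). Cx3cr1 was lower in the same groups (−1.18, adjusted p = 0.0111; −1.62, adjusted p = 0.000739). Ackr1 was lower in all 3, from 1.49 ± 0.320 CPM to 0.759, 0.470 and 0.381 CPM. The monocyte receptor Ccr2 went from 3.36 ± 0.890 CPM in Ctrl_RT to 2.35 ± 0.855 and 2.33 ± 0.742 under either exposure alone (both −0.52, not called) and to 1.08 ± 0.311 in MetR_CE (−1.62, adjusted p = 3.46e-06). Ccl6 and Ccl9 were lower with methionine restriction at either temperature (−1.09 and −1.11 in MetR_RT; −1.18 and −1.23 in MetR_CE), and Ccl8 was lower in MetR_CE (−3.12, adjusted p = 0.00204).

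Ccl28, a mucosal ligand of Ccr10, was lower in iBAT Ctrl_CE (−1.98 ± 0.53, adjusted p = 0.0038), from 0.397 to 0.0994 CPM. MetR_CE was lower than Ctrl_CE for 6 genes, among them Ccr1, Ccr2, Ccl5, Ccl8 and Cxcr2 (1.64% of all genes called, 1.16% lower). Within Ctrl_CE, replicate 4 was the highest library for Cxcr2 (2.826 CPM, next 0.4359) and Ccr1 (1.041 CPM, next 0.2676). MetR_CE libraries held at most 0.06363 CPM of Cxcr2 and 0.1036 CPM of Ccr1. Ccr1 had a mean under 0.5 CPM in every group and was outside the rule by which genes were named in iBAT. Compared to MetR_RT, MetR_CE was called for 9 genes (8.53% of all genes; 3.41% higher, 5.13% lower), with Ackr3, Cxcl12 and Cxcl14 higher and Ccl5, Ccl28, Ccr2, Cx3cr1 and Cxcl9 among the lower ones. The interaction was called for 1 gene (0.372% of all genes, 0.125% below 0). Ccl5, an attractant of T cells and monocytes, had means of 0.166, 0.343, 0.229 and 0.0636 CPM in Ctrl_RT, Ctrl_CE, MetR_RT and MetR_CE and an interaction of −2.81 ± 0.64 (adjusted p = 0.0274). Its level was a few counts per library, it was chosen for mention after its values were seen, and the interaction was called for none when the 3 libraries whose treatment tag differs from their title were left out. Grouped by that tag, MetR_CE was called against MetR_RT for 5 genes and against Ctrl_CE for none. Without Ctrl_CE replicate 4, 11 genes were called in Ctrl_CE, 4 for MetR_CE against Ctrl_CE and 2 for the interaction. Macrophage markers moved alongside: 1, 8 and 11 of 14 were lower in Ctrl_CE, MetR_RT and MetR_CE, and their sum lay between 124.6 and 198.9 CPM in Ctrl_RT and between 55.6 and 92.8 CPM in MetR_CE. Of 6 fibroblast and mesothelial markers, 2, 5 and 5 were lower, with sums of 389.5 to 956.6 CPM in Ctrl_RT, 184.6 to 506.6 in Ctrl_CE, 183.8 to 297.8 in MetR_RT and 125.8 to 237.2 in MetR_CE. Of 6 neutrophil markers, 0, 0 and 3 were lower, and their sum went from 2.38 to 8.11 CPM in Ctrl_RT to 0.64 to 1.46 CPM in MetR_CE; without Ctrl_CE replicate 4, 4, 4 and 5 of 5 tested were lower. Brown adipocyte markers summed to 8201 to 10930 CPM in Ctrl_RT and to 15250 to 18100 and 15470 to 18850 CPM in Ctrl_CE and MetR_CE. The part of these cell types in the result was not tested. Beside the shares of all genes given for iBAT above, of 25 receptor-signalling genes, 1 was higher and 2 lower in Ctrl_CE, 1 was lower in MetR_RT and 11 were lower in MetR_CE, with the scaffold Arrb1 lower in all 3 (−0.95, −0.88 and −1.40). Of 18 NF-kB and cytokine genes, 2 were higher and 3 lower in Ctrl_CE, none changed in MetR_RT and 6 were lower in MetR_CE.

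In liver, 9 of 46 genes were called in Ctrl_CE (6 higher, 3 lower; 11.9% of all genes), 3 (6.52%) in MetR_RT (all lower; 6.91% of all genes, about the same share) and 7 in MetR_CE (1 higher, 6 lower; 13.5%). More members were called in MetR_RT with only the compared groups, and also without Ctrl_CE replicate 4. That library is in neither compared group but shares the fit and its estimate of the spread. The shares of all genes in those fits are not given. Over all genes, 7.28% were higher and 4.64% lower in Ctrl_CE, 4.02% were lower in MetR_RT, and 6.25% were higher and 7.22% lower in MetR_CE. Cxcl14 was called in all 3. Its Ctrl_RT libraries lay between 3.75 and 18.3 CPM (median 5.83), Ctrl_CE between 1.95 and 4.57 (median 3.30), MetR_RT between 0.789 and 2.13 (median 1.28) and MetR_CE between 1.48 and 2.76 (median 1.79). Both restricted groups lay below every Ctrl_RT library. The changes were −1.19 ± 0.27 (adjusted p = 0.00125), −2.38 ± 0.30 (adjusted p = 8.79e-07) and −1.83 ± 0.29 (adjusted p = 1.02e-05), and the interaction was 1.74 ± 0.42 (adjusted p = 0.0298; 1.06% of all genes called, 0.375% above 0). With the summed lymphocyte markers as a covariate the interaction no longer passed (1.59, adjusted p = 0.0665). In iBAT the same gene rose in the cold.

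Ccl9 fell in the cold in liver. It lay between 39.9 and 57.5 CPM in Ctrl_RT and between 21.3 and 33.6 CPM in Ctrl_CE, without overlap (−0.90 ± 0.10, adjusted p = 5.84e-08). MetR_RT was not called (0.13), and MetR_CE, between 30.3 and 39.1 CPM, was lower by less than the fold required (−0.40, adjusted p = 0.00153). Ccl25, a ligand of Ccr9, also went down in Ctrl_CE, from 5.34 ± 0.387 to 3.48 ± 0.691 CPM (−0.61, adjusted p = 0.000271). Cxcl12 was at 232.6 ± 52.6 CPM in Ctrl_RT and 338.4 ± 42.8 CPM in Ctrl_CE, a difference under the fold required (0.54, adjusted p = 0.000786). The scavenging receptors Ackr2 (0.83, adjusted p = 0.00812) and Ackr4 (0.67, adjusted p = 0.02) were higher in Ctrl_CE, and Ackr4 was also higher in MetR_CE (0.72, adjusted p = 0.0122).

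**Figure D3:**
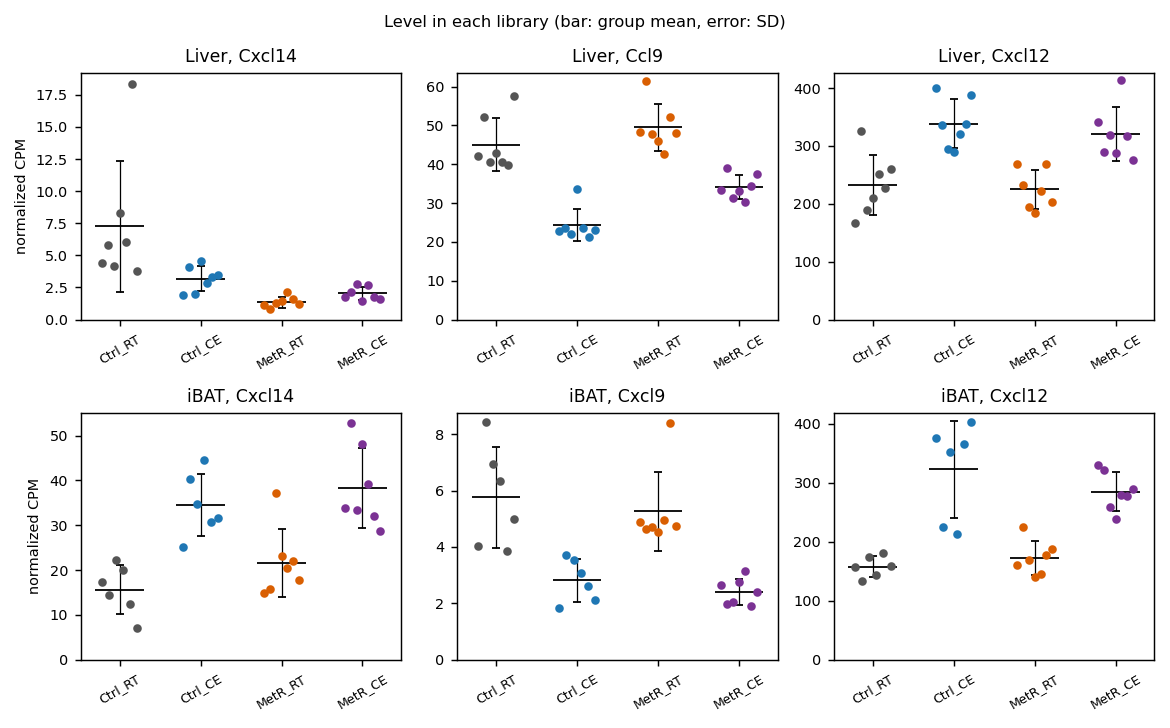
Normalised CPM (y axis, linear from 0) of Cxcl14, Ccl9 and Cxcl12 in liver and of Cxcl14, Cxcl9 and Cxcl12 in iBAT, by group (x axis); points are libraries, bars the group mean ± SD. Cxcl12 is higher in both cold groups of iBAT, Cxcl14 is higher in the cold in iBAT and lower in all 3 treated groups in liver, and liver Ccl9 in Ctrl_CE and iBAT Cxcl9 in both cold groups lie below every Ctrl_RT library.

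Ccl6 in liver went from 8.59 ± 2.7 to 3.76 ± 1.15 CPM in MetR_RT (−1.18, adjusted p = 0.00135). Cx3cr1 was lower in MetR_CE, at 0.354 ± 0.0838 CPM against 1.10 ± 0.358 (−1.60, adjusted p = 8.84e-05), and was below both MetR_RT (−1.16) and Ctrl_CE (−1.70). MetR_CE was lower than Ctrl_CE for 10 of 46 genes (5.26% of all genes called, 4.1% lower), among them Ackr3, Ccl7, Ccr2, Cx3cr1, Cxcl2, Cxcl9, Cxcl10, Cxcl13 and Cxcl16, and lower than MetR_RT for 2, Cx3cr1 and Cxcl5 (5.18%, 2.44% lower). Cxcl5 had only 12 counts in total over the liver libraries and none in MetR_CE. Cxcl2 and Cxcl5 were outside the rule by which genes were named in liver. Without Ctrl_CE replicate 4, Ackr3, Cx3cr1 and Cxcl13 were still called against Ctrl_CE, whereas Ccl7, Ccr2, Cxcl2, Cxcl9, Cxcl10 and Cxcl16 were not. Macrophage markers differed in the same groups: 9 of 14 were higher in Ctrl_CE (5 without Ctrl_CE replicate 4), 4 lower in MetR_RT, and 2 higher and 4 lower in MetR_CE, with mean sums of 321.4, 583.1, 221.3 and 305.9 CPM from Ctrl_RT to Ctrl_CE, MetR_RT and MetR_CE. Endothelial markers were higher in both cold groups (6 and 7 of 7), and neither list's part in the result was tested.

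Several liver results turned on 1 library. Cxcl1, the neutrophil attractant, lay between 8.27 and 29.4 CPM in Ctrl_RT (median 23.9) and between 2.43 and 86.5 CPM in Ctrl_CE, where the highest value was replicate 4 and the next was 5.75 CPM. With replicate 4, Cxcl1 did not pass in Ctrl_CE (−0.41, adjusted p = 0.66), and without it the change was −2.40 (adjusted p = 5.7e-07). In MetR_CE, between 2.46 and 6.11 CPM, Cxcl1 was lower with or without that library (−2.19). Without it, Cxcl13, Cxcl16, Ccl4 and Ccl25 were no longer called in Ctrl_CE, Cxcl2, Cxcl12 and Ccl2 were called, and 8 genes were called in MetR_RT, 11 in MetR_CE, 5 for MetR_CE against Ctrl_CE and 4 against MetR_RT. Of 25 receptor-signalling genes, 12 were higher in Ctrl_CE, 1 was lower in MetR_RT, and 3 were higher and 3 lower in MetR_CE, and of 19 NF-kB and cytokine genes 3 were higher and 1 lower, 2 lower and 2 lower, Il1r1 being lower in all 3 (−1.41, −1.55 and −2.28), beside the shares of all genes given for liver above. Without Ctrl_CE replicate 4, none of the NF-kB and cytokine genes was higher in Ctrl_CE and 1 was lower, Il1r1. The chemerin receptors Cmklr1 (1.04) and Ccrl2 (0.82) were higher in Ctrl_CE, Ccrl2 not without that library (0.47, adjusted p = 0.0543), Mif was higher in MetR_RT (0.65) and MetR_CE (0.60), and Ppbp was lower in MetR_CE (−1.69).

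The neutrophil markers and the genes that went with them linked the 4 libraries of the mouse Ctrl_CE replicate 4. Its summed neutrophil markers were 72.4 CPM in liver, 39.7 CPM in iBAT, 60.2 CPM in iWAT and 76.5 CPM in eWAT, against at most 12.5, 3.92, 11.2 and 15.7 CPM in the rest of the group. Cxcr2 was 3.45, 2.83, 2.41 and 5.18 CPM in these libraries, with 0.303, 0.436, 0.244 and 1.02 CPM as the next highest. Cxcl13, the B-cell attractant that binds Cxcr5, was 115.6, 7.88, 70.4 and 77.2 CPM, with 18.3, 2.26, 23.3 and 1.04 CPM next. Cxcl1 was also the highest of its group in this mouse in liver, in iBAT (0.496 CPM, next 0.277) and in eWAT (4.38 CPM, next 1.49), but not in iWAT.

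**Figure D4:**
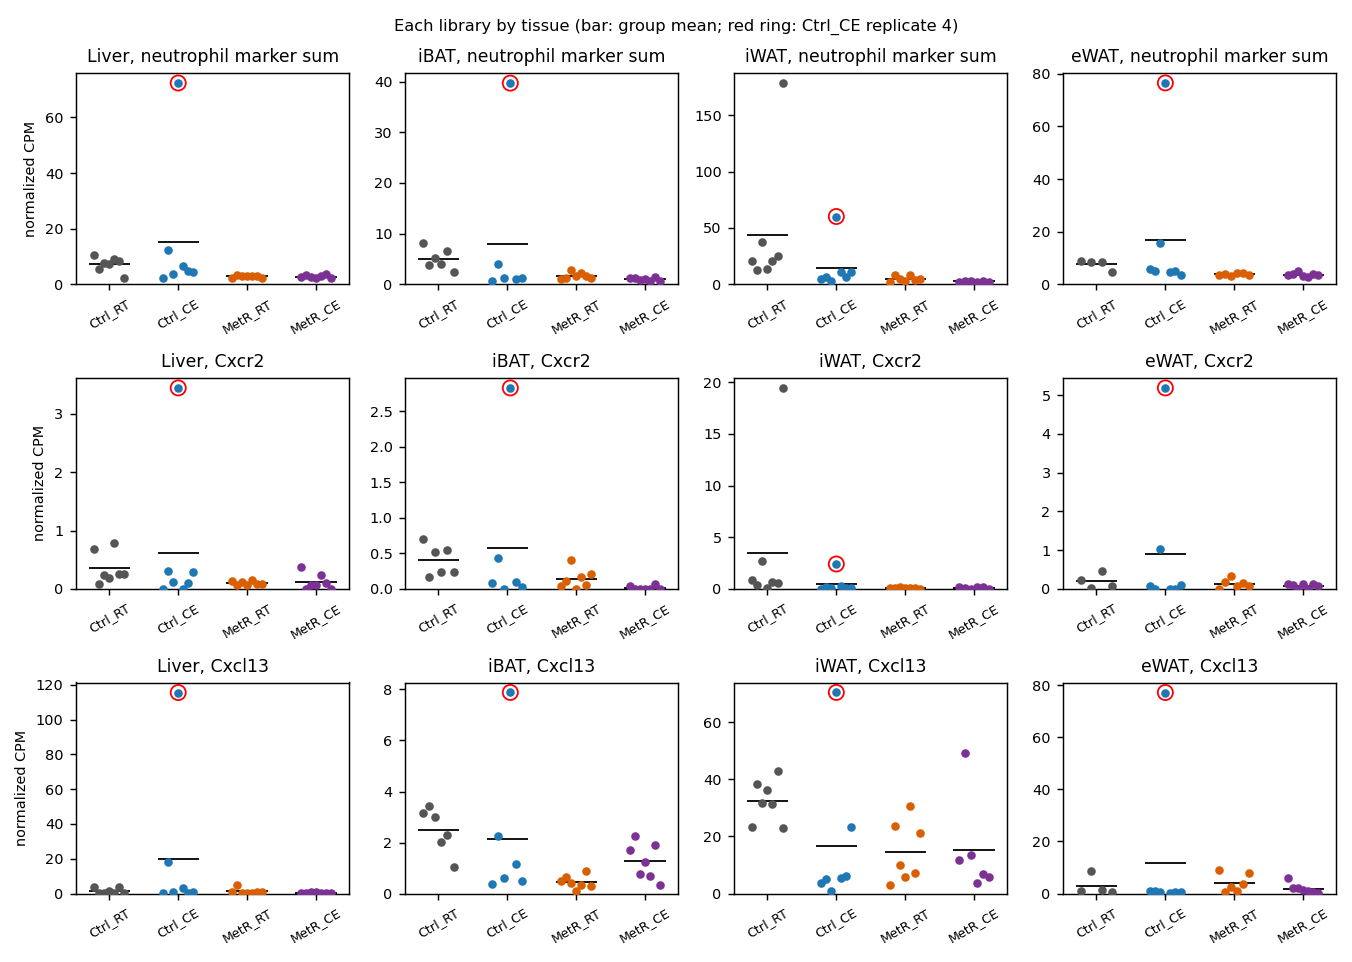
Summed neutrophil markers, Cxcr2 and Cxcl13 (normalised CPM, y axis from 0) in every library of the 4 tissues, by group (x axis); bars are group means and the red ring marks Ctrl_CE replicate 4. The ringed library is the highest of its group in all 12 panels.

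In eWAT, almost no member passed the test. No gene was called in Ctrl_CE by edgeR (14 of 55 at an unadjusted p below 0.05; DESeq2 called 3; 2.42% of all genes) or in MetR_RT (9 unadjusted; DESeq2 3; 0.115% of all genes), and 1 was called in MetR_CE (1.3% of all genes, 0.601% higher). That gene was Cxcr4, the Cxcl12 receptor. The 4 Ctrl_RT libraries held 3.0, 7.44, 2.23 and 5.82 CPM, the Ctrl_CE libraries 6.74 to 13 CPM (median 8.93), the MetR_RT libraries 6.90 to 14 CPM (median 11) and the MetR_CE libraries 6.53 to 15.6 CPM (median 10.1). The 3 treated groups overlapped the highest Ctrl_RT library. The changes were 1.0 ± 0.30 (adjusted p = 0.0564), 1.21 ± 0.31 (adjusted p = 0.135) and 1.16 ± 0.30 (adjusted p = 0.0392), and the call in MetR_CE was lost when Ctrl_RT replicate 1, 6 or 7 was left out. With all libraries 6 genes were called in each of Ctrl_CE and MetR_CE, and without Ctrl_CE replicate 4, 1, 1 and 2 were called in Ctrl_CE, MetR_RT and MetR_CE. No gene was called by edgeR for the interaction (7 at an unadjusted p below 0.05; DESeq2 2; 2.3% of all genes) or for MetR_CE against MetR_RT (7 unadjusted; DESeq2 2; 0.112% of all genes).

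Ccl8 was lower in MetR_CE than in Ctrl_CE in eWAT as well (−3.61 ± 0.62, adjusted p = 0.00071; 4.35% of all genes called, 2.12% lower). The Ctrl_RT libraries held 1.45, 2.12, 3.77 and 1.66 CPM, Ctrl_CE ranged from 1.78 to 23.6 CPM (median 3.95), MetR_RT from 0.184 to 2.40 CPM (median 0.807) and MetR_CE from 0.248 to 1.52 CPM (median 0.508), so every Ctrl_CE library was above every MetR_CE library. Ccl2 was at 4.62, 5.22, 2.06 and 2.00 CPM in Ctrl_RT and at 2.89 to 20.9 CPM in Ctrl_CE, and did not pass (1.33 ± 0.44, adjusted p = 0.0824). Cxcl12 held 358.3, 251.7, 379.1 and 250.6 CPM in the kept Ctrl_RT libraries and missed the test in MetR_RT (−0.65 ± 0.14, adjusted p = 0.0648), though it passed without Ctrl_CE replicate 4 (adjusted p = 0.0375). The kept MetR_RT libraries held 151.8 to 225.8 CPM of Cxcl12. The Ctrl_RT libraries left out held 199.3, 317.5 and 134.4 CPM when all libraries were normalised together. No macrophage marker of 14 was called in any of the 3 comparisons, and the sums lay between 494.6 and 1508 CPM over all libraries.

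Ccl28, also described as a mucosal epithelial chemokine, varied between eWAT libraries within each group. The Ctrl_RT libraries held 0.337, 0.102, 37.6 and 1.27 CPM, and Ctrl_CE ranged from 0.151 to 36.5 CPM and MetR_CE from 0.565 to 26.6 CPM. No comparison passed (0.39, −2.55 and −0.50). The 4 libraries with the highest Ccl28, at 37.6, 36.5, 26.6 and 24.5 CPM, had summed ciliated and epididymal epithelial markers of 330.4, 340.3, 259.7 and 149.6 CPM, whereas the median over all eWAT libraries was 17.8 CPM; the part of epithelial RNA in these values was not tested. Of 26 receptor-signalling genes none was called in eWAT, of 21 NF-kB and cytokine genes 1 was lower in Ctrl_CE (Ifngr1, −0.80), and the chemerin receptor Cmklr1 was higher in Ctrl_CE (0.68) and MetR_CE (0.76).

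Whether a change differed between depots was tested directly in 1 fit per pair of depots. The same mice supplied both depots of a pair, and the fit held no term for the mouse. The change in iWAT was lower than that in eWAT for 15 of 55 genes in Ctrl_CE (3.14% of all genes), 8 in MetR_RT (2.43%) and 24 in MetR_CE (10.7%), and higher for none; 1.9%, 1.16% and 6.47% of all genes were lower. Ccl2 differed by −4.73 ± 0.82 (adjusted p = 0.00134), −3.17 ± 0.81 (adjusted p = 0.0219) and −4.57 ± 0.84 (adjusted p = 9.76e-05). Ccr2 differed by −2.08, −1.93 and −2.98. Cxcr4, which was not called in iWAT and was higher in eWAT MetR_CE, differed as well (−1.27, −1.53 and −1.55). Without iWAT Ctrl_RT replicate 7, Ccl2 differed by −3.73 (adjusted p = 0.00222), −2.14 (adjusted p = 0.0716, no longer called) and −3.51 (adjusted p = 0.000238), and Ccr2 by −1.91, −1.74 (adjusted p = 0.0618, no longer called) and −2.77. Without that library 7, 2 and 22 genes differed, those in MetR_RT being Ccl4 and Ccl5 (named after their values were seen), so that Cxcr4 was no longer called there. Without Ctrl_CE replicate 4, 9 differed in Ctrl_CE.

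Against iBAT, the change in iWAT was lower for 12 and higher for 1 of 54 genes in Ctrl_CE (10.5% of all genes), lower for 3 in MetR_RT (4.65%), and lower for 10 and higher for 1 in MetR_CE (12.7%). Over all genes, 4.39%, 1.55% and 4.99% were lower in the 3 comparisons, and 6.15% and 7.7% higher in Ctrl_CE and MetR_CE. Ccl2 differed by −3.50 ± 0.91 in Ctrl_CE and −3.49 ± 1.02 in MetR_CE, and by −2.47 (adjusted p = 0.0138) and −2.46 (adjusted p = 0.0231) without iWAT Ctrl_RT replicate 7. Cxcl12, which rose in iBAT, differed by −0.88 ± 0.18 (adjusted p = 0.000292) and −0.69 ± 0.18 (adjusted p = 0.00351). The higher ones were Ccl21a in Ctrl_CE (2.26 ± 0.76) and Cxcl9 in MetR_CE (1.82 ± 0.32, adjusted p = 2.09e-05). Without iWAT Ctrl_RT replicate 7, 10, 0 and 7 genes differed; in limma voom with the mouse as a block 8 differed in Ctrl_CE and 6 in MetR_RT, and without Ctrl_CE replicate 4, 8 differed in Ctrl_CE.

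**Figure D5:**
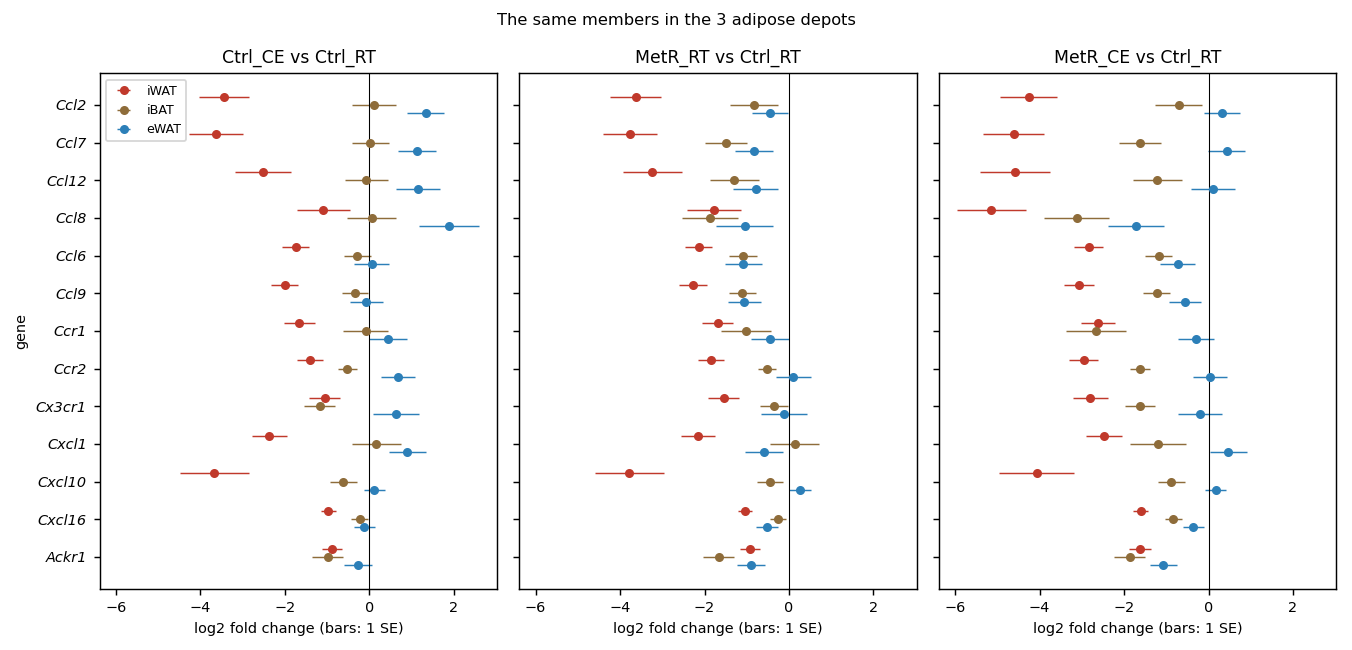
Log2 fold change ± 1 SE (x axis) of 13 chemokine genes (y axis) in iWAT, iBAT and eWAT (colour), in 1 panel for each comparison with Ctrl_RT. The iWAT points of Ccl2, Ccl7 and Ccr2 lie left of those of eWAT in all 3 panels.

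Compared per kilobase of exon, which allows levels of different genes to be set side by side, the leading member differed between tissues. In Ctrl_RT, Cxcl12 led in liver (28.4 ± 6.43 CPM per kb), ahead of Ccl9 (14.8 ± 2.26). Ackr3 (20.7 ± 6.43) and Cxcl12 (19.3 ± 2.16) led in iBAT and did not differ beyond their spread. Ccl6 (158 ± 33.7) and Ccl8 (138 ± 83.4) led in iWAT, again within their spread, and Ccl6 (46.6 ± 11.3) and Cxcl12 (37.9 ± 8.37) led in eWAT. In iWAT of MetR_CE mice, Cxcl12 (29 ± 3.32) had a higher mean than Ccl6 (22.1 ± 9.74), within their spread.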

How the data were processed

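Liver, iBAT, iWAT and eWAT of 28 mice were profiled by bulk RNA-seq, giving 110 libraries. Per the labels and the submitters' processing notes, which name STAR 2.7.9a, featureCounts 2.0.3, Salmon 1.9.0, MultiQC 1.19, DESeq2 1.46.0 and mm10, the authors deposited raw counts per gene, neither normalised nor filtered. The methods describe featureCounts and Salmon in parallel with a later GENCODE release than the one used here, and which of them made the tables was not established; strand use in counting is not given in the sources used here. Gene symbols came from GENCODE M21 and matched 51948 of 56884 gene IDs. Levels between genes were divided by the length of the union of exons in that annotation. Promoters came from RefSeq.

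Samples were grouped by title. In iBAT, 3 libraries carry a treatment tag of another group. Of the 110 libraries 105 were kept, since the study left out 5 as outliers on principal components without naming them. Leaving out iBAT Ctrl_CE replicate 5, eWAT Ctrl_RT replicates 2, 4 and 5 and eWAT MetR_RT replicate 7 came closest to the mean normalised counts in the study's source data among all choices of that number per group (median deviation of 0.251% over 2422 iBAT genes and 0.151% over 1053 eWAT genes, next best 1.15% and 0.775%), and the fit with all libraries is an alternative. Each library of a tissue came from a different mouse, and no 2 libraries of a group held identical counts.

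Genes with at least 10 counts in a tissue were fitted per tissue by edgeR 4.0.16 (quasi-likelihood, TMM factors, R 4.3.3) with 1 coefficient per group and adjusted by Benjamini-Hochberg over all genes tested. A gene was called at an adjusted p below 0.05 and a log2 fold change of at least 0.585 in size (1.50-fold). The interaction is the change in the cold under methionine restriction minus that on the control diet. Differences between depots were tested in 1 fit over both depots. The depth, 6987895 to 33444374 counts, was lowest in liver; a gene at 0 in a group was set against a floor of 3 counts over the group, which covers counting error only. The fit was also run on simulated data with 200 changed genes, none of them sparse. The outcome is not reported here, and the run covers neither sparse members nor groups with an outlying library.

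Genes named were the called members with a mean of at least 0.5 CPM (up to 12 per tissue by adjusted p), a fixed list of well-known members, members with a library at least 5 times the tissue's median, and up to 4 called genes of each pathway list. Some genes are counted in the totals but not reported here. The members and lists were chosen with earlier results of these data known. Alternatives were RLE factors, DESeq2 1.42.0, other filters, fits of the compared groups alone, a replicate block, a lymphocyte covariate, the treatment tags, left-out libraries, and limma 3.58.1 for depots. The left-out libraries Ctrl_CE replicate 4 and iWAT Ctrl_RT replicate 7 were chosen as alternatives after seeing the data.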

Additional observations from a re-analysis of the deposited data

Results flagged for a closer look

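Each group of 4 to 7 libraries was searched for a library far from the others of its group. The search covered 2 marker sums, the leading called members of each tissue and the members with a library at least 5 times the tissue's median. Other members, and groups with no library of at least 0.5 CPM, were not searched. A gene not listed may therefore also hold such a library. Such a library was found 57 times, in 24.5% of the searches. Some members searched had been picked for a library at least 5 times the tissue's median. The share can therefore not be set against the 1 in 20 that chance gives. All values are in normalised CPM. The iWAT library of Ctrl_RT replicate 7 was the high one 11 times: Ccl2 128.6, Ccl4 13.67, Ccl7 133.8, Ccl12 27.13, Ccr1 33.5, Cxcl2 9.182, Cxcl5 16.66, Cxcl10 224.4, Cxcl11 5.414, Cxcr2 19.44 and summed neutrophil markers 178.6. In liver, Ctrl_CE replicate 4 was the high one 9 times: Ccl2 8.944, Ccl4 2.981, Ccl9 33.63, Ccr2 9.689, Cxcl1 86.46, Cxcl10 15, Cxcl13 115.6, Cxcl16 16.77 and neutrophil markers 72.39. The same mouse stood out in iBAT (Cxcl13 7.884, Cxcr2 2.826, neutrophil markers 39.72), iWAT (Cxcl13 70.41, Cxcr2 2.41, neutrophil markers 60.19) and eWAT (Cxcl1 4.378, Cxcl13 77.2, neutrophil markers 76.54).

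In iWAT, MetR_CE replicate 2 was high for Ccl6 (73.12), Ccr1 (5.427), Cxcl13 (49.17) and summed macrophage markers (775.7). Ctrl_RT replicate 6 was high for Ccl8 (157.2) and macrophage markers (3577), MetR_RT replicate 2 for Ccl2 (4.831) and Ccl12 (1.816), MetR_RT replicate 4 for Cxcl1 (1.254) and Ctrl_CE replicate 5 for Ccr3 (0.9292). In eWAT, Ctrl_CE replicate 3 was high for Ccl2 (20.87), Ccl7 (14.92) and Ccr2 (110.7). Further eWAT values were Ccl28 at 37.61 in Ctrl_RT replicate 6 and 5.742 in MetR_RT replicate 5, Cxcl13 at 8.468 in Ctrl_RT replicate 3 and 5.875 in MetR_CE replicate 1, and low neutrophil markers (4.798) in Ctrl_RT replicate 7. In liver, the others were Ackr2 at 2.668 in MetR_RT replicate 3, Ccl25 at 4.56 (low) in Ctrl_RT replicate 5, Ccl6 at 14.12 in Ctrl_RT replicate 1, Cxcl13 at 5.192 in MetR_RT replicate 2, Cxcl14 at 18.31 in Ctrl_RT replicate 6 and Cxcl9 at 19.17 in Ctrl_RT replicate 7. In iBAT they were Cxcl14 at 37.16 in MetR_RT replicate 3, Cxcl16 at 2.312 and Cxcl9 at 8.406 in MetR_RT replicate 6, and macrophage markers at 198.9 in Ctrl_RT replicate 5.

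Changes of the leading called iWAT members that differed between depots by the test of the difference are given as iWAT minus the other depot on the log2 scale; all were past an adjusted p of 0.05 with all libraries. Against eWAT in Ctrl_CE they were Ccl2 −4.73, Ccl7 −4.73, Ccr1 −2.08, Ccr2 −2.08, Ccl9 −1.91 and Ccl6 −1.77. In MetR_RT they were Ccl2 −3.17, Ccl7 −2.93 and Ccr2 −1.93. In MetR_CE they were Ccl7 −5.02, Ccl2 −4.57, Ccr3 −3.60, Ccl8 −3.41, Ccr2 −2.98, Cx3cr1 −2.60, Ccl9 −2.51, Ccr1 −2.30, Ccl6 −2.10 and Cxcl16 −1.24. Against iBAT in Ctrl_CE they were Ccl7 −3.61, Ccl2 −3.50, Ccl9 −1.63 and Ccl6 −1.44. In MetR_RT, Ccr2 differed by −1.31, and in MetR_CE they were Ccl2 −3.49, Ccl9 −1.82, Ccl6 −1.64, Ccr2 −1.31 and Cxcl16 −0.73. Without iWAT Ctrl_RT replicate 7, the calls of Ccl2, Ccl7 and Ccr2 against eWAT in MetR_RT were lost (−2.14, −1.91 and −1.74, adjusted p of 0.0716, 0.154 and 0.0618), and so were those of Ccr2 against iBAT in MetR_RT (−1.12, adjusted p = 0.0731) and MetR_CE (−1.11, adjusted p = 0.0602). Also lost without it were Ccr1 (−1.75, adjusted p = 0.0616) and Ccl6 (−1.76, adjusted p = 0.0577) against eWAT in Ctrl_CE and Cxcl16 against iBAT in MetR_CE (−0.71, adjusted p = 0.0641). Without Ctrl_CE replicate 4, those of Ccr1 (−1.84, adjusted p = 0.0842), Ccl9 (−1.81, adjusted p = 0.0504) and Ccl6 (−1.55, adjusted p = 0.111) against eWAT and of Ccl6 against iBAT (−1.28, adjusted p = 0.0679) were lost in Ctrl_CE. The interaction of diet and temperature passed for Cxcl14 in liver (1.74; 1.59, adjusted p = 0.0665, with the lymphocyte covariate) and Ccl5 in iBAT (−2.81).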

How the results depend on the processing

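Counts of called members were recomputed under each alternative, and those that moved by over 1.5 times follow. The share of all genes called under each alternative is not given. DESeq2 called 3, 3, 4, 5, 2 and 2 in eWAT for Ctrl_CE, MetR_RT and MetR_CE against Ctrl_RT, MetR_CE against Ctrl_CE, MetR_CE against MetR_RT and the interaction; it called 4, 5 and 14 in iWAT for the interaction, MetR_CE against MetR_RT and against Ctrl_CE, 4 and 1 in liver for the interaction and MetR_CE against MetR_RT, and 0 for the iBAT interaction. RLE factors gave 1 and 2 for the iWAT and liver interactions. With all libraries, 6 members were called in eWAT in both Ctrl_CE and MetR_CE. With the stricter filter filterByExpr, eWAT had 1 in Ctrl_CE, 1 in MetR_RT, 3 in MetR_CE and 3 for MetR_CE against Ctrl_CE, iWAT 3 and liver 2 for the interaction, liver 1 for MetR_CE against MetR_RT, and iBAT 3 for MetR_CE against Ctrl_CE and 0 for the interaction; with no filter, liver had 1 for MetR_CE against MetR_RT. With only the compared groups, liver had 6 in MetR_RT, 6 for MetR_CE against Ctrl_CE and 4 against MetR_RT. Grouping iBAT by the treatment tag gave 5 for MetR_CE against MetR_RT, 0 against Ctrl_CE and 0 for the interaction, which was also 0 without the 3 libraries concerned. With the lymphocyte covariate, iWAT had 17 in MetR_CE, 0 for MetR_CE against Ctrl_CE and 0 against MetR_RT, and the liver and iBAT interactions had 0. In iWAT this covariate itself had its lowest group mean in MetR_CE. In limma voom with the mouse as a block, the changes in iWAT and iBAT differed for 8 members in Ctrl_CE and 6 in MetR_RT.

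Replicate numbers within a tissue mark different mice and so do not pair the groups. Correlations of same-numbered libraries ran from −0.372 to 0.521 and were over 0.1 in 1 of 42 pairs in liver, 11 of 36 in iBAT, 8 of 39 in iWAT and 14 of 30 in eWAT. No such count was made for libraries of different numbers, so these counts cannot decide on pairing. With the replicate block, eWAT had 1 in Ctrl_CE, 2 in MetR_CE and 2 for MetR_CE against Ctrl_CE, and liver had 6 for MetR_CE against Ctrl_CE and 1 against MetR_RT.

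Leaving out each eWAT Ctrl_RT library in turn gave 0 to 2 in Ctrl_CE, 0 to 1 in MetR_RT, 0 to 1 in MetR_CE, 1 to 3 for MetR_CE against Ctrl_CE and 0 to 1 for the interaction. Without Ctrl_CE replicate 4, liver had 8 in MetR_RT, 11 in MetR_CE, 4 for MetR_CE against MetR_RT and 5 against Ctrl_CE, iBAT 11 in Ctrl_CE and 2 for the interaction, eWAT 1 in Ctrl_CE, 1 in MetR_RT, 2 in MetR_CE and 1 for the interaction, and the Ctrl_CE changes differed for 9 (iWAT against eWAT) and 8 (iWAT against iBAT). Without iWAT Ctrl_RT replicate 7, 7 and 2 differed from eWAT in Ctrl_CE and MetR_RT, and 10, 0 and 7 from iBAT in Ctrl_CE, MetR_RT and MetR_CE.

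Of 4575 alternative values of the 472 changes of named members, 4441 kept direction and side of the threshold, 46 lost the call, 85 gained it and 3 reversed: liver Ccl2 in Ctrl_CE (−1.65 by DESeq2, −1.61 without Ctrl_CE replicate 4) and iBAT Cxcr2 in Ctrl_CE (−1.60 without that replicate). The largest shift of the median of all genes by scaling was −0.0338. The cause of these changes was not tested. Depth limits members under 0.5 CPM in every group, of which liver had 15, iBAT 23, iWAT 13 and eWAT 16.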
